A study of Mus musculus with 9 samples.

Results

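The major urinary protein (Mup) genes were examined in mouse liver after feeding with a high-fat diet (HFD) under different storage conditions. The family was taken as the rows whose gene symbol was Mup1, Mup2, Mup3, Mup7, Mup11, Mup12, Mup17, Mup20 or Mup21, which were 9 of the 33211 genes in the table and 9 of its 21 rows with a Mup symbol. These genes were chosen because their share of the counts had been seen to differ between the same groups of libraries. Every difference between the groups in a Mup gene is therefore given below as a description, with no test. The mice were C57BL/6 males (C57BL6/J in the methods of the study), 8 weeks old when 7 weeks of feeding began, and all 9 libraries came from mice given the same kind of HFD. In the HFDfre group (n = 5) the diet was kept in a freezer, and in the HFDfri group (n = 4) it was kept in a fridge. No chow-fed group was analysed here, so the values compare the storage conditions only. RNA came from whole liver, so fewer cells of a type and less RNA per cell cannot be told apart.

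Major urinary proteins are small lipocalins, barrel-shaped proteins that carry hydrophobic ligands. They are made by hepatocytes, secreted into the blood and passed into the urine, where they hold and slowly release volatile pheromones. The genes form a dense cluster of near-identical copies. In male mice their transcripts rank among the most abundant of the liver. Their expression is known to depend on pulses of growth hormone acting through STAT5B, and also on androgens, thyroid hormone and glucocorticoids. Mup20 encodes darcin, a male signal that attracts females.

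All 9 genes lay within the Mup cluster of mouse chromosome 4 on the minus strand (GRCm38, GENCODE M21). Mup7 was the first of them on the chromosome, from 60066469 to 60070475, and Mup21 the last, from 62147932 to 62150863. Their transcripts had 7 exons, except for that of Mup21, which had 6. The coding sequences were between 540 and 552 bases long. The sequences of the copies decide how surely a read can be placed, so a stretch of 60 coding bases is shown for each gene from GENCODE M21. The stretch lies at the start of the coding sequence, where it encodes most of the signal peptide and the first residues of the mature protein, and capitals mark bases that differ from the most common base among the 9.
Mup1: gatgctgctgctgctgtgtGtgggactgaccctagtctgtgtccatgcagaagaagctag
Mup2: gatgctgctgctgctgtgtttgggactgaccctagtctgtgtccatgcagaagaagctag
Mup3: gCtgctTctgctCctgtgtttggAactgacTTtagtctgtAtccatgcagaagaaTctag
Mup7: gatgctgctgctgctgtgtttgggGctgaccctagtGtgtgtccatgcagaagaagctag
Mup11: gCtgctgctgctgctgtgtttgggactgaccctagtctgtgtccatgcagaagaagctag
Mup12: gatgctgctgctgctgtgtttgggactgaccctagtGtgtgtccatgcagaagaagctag
Mup17: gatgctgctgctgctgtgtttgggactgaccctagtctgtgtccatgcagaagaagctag
Mup20: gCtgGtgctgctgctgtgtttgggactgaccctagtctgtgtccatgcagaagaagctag
Mup21: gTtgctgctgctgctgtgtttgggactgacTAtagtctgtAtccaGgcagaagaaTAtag

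The 9 genes had 8 distinct versions of this stretch, and Mup2 and Mup17 were identical over it. Mup1, Mup11 and Mup12 differed from the most common version at 1 base each, and Mup7 and Mup20 at 2. Mup3 differed at 8 bases and Mup21 at 7. Over the whole coding sequence, Mup1 and Mup12 were 99.6% identical and differed at 2 bases. Mup2, Mup7, Mup11 and Mup17 each had a relative among the 9 at 98.9% to 99.4% identity. Mup3 and Mup21 were 95.4% identical to each other, and Mup20 was 91.3% identical to its nearest relative, Mup17. The genes thus fell into 6 close copies (Mup1, Mup2, Mup7, Mup11, Mup12 and Mup17) and 3 that stood further apart (Mup3, Mup20 and Mup21).

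A related measure is how much of each transcript was found in no other gene, by which Mup17 stood with the 3 more distant genes. Each transcript was cut into all windows of 150 bases, the read length of the study, and each window was looked for in every other GENCODE M21 transcript. All windows of Mup3 and Mup21 were unique (100%). For Mup20 the share was 68.9%, and the windows it shared were found in Mup-ps19. For Mup17 it was 59.6%. For the other 5 members it lay between 9.25% (Mup2) and 24.1% (Mup12). For those 5, and in part for Mup17 and Mup20, the estimated count therefore depends on how reads that match several copies were divided. How they were divided is not given in the sources used here. The gene with which each of the 5 shared most windows was another Mup gene.

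The RefSeq promoter table held 6 of the 9 members (Mup2, Mup3, Mup7, Mup11, Mup17 and Mup21). Because most members varied together across the libraries, promoter sequence is shown, as the 100 bases that end with a TATA-like box for the 4 genes in which the box, TATATAA, lay wholly upstream of the annotated start (RefSeq, GRCm38.p6, minus strand, box in capitals).
Mup17 (chr4:61595851-61595950): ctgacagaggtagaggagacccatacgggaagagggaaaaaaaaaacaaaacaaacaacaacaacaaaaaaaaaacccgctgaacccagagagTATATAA
Mup2 (chr4:60139877-60139976): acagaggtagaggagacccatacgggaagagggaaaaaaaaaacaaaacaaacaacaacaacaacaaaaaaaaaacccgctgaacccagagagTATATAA
Mup21 (chr4:62150843-62150942): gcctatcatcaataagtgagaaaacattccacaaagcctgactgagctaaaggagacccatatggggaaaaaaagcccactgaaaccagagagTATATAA
Mup3 (chr4:62087322-62087421): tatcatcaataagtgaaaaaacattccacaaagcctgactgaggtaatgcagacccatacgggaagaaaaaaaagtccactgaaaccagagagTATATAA

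The last 15 bases of the 4 stretches were identical. TATATAA was chosen as a motif after these windows were read. On both strands it was found in 5 of the 6 member windows (250 bases before to 50 after the start), against 3.22% of all 32544 windows. The canonical TATAAA, which neither contains that motif nor lies within it, was in 0 of the 6, against 13.6% of all windows. The STAT5 motif TTCNNNGAA was in 0 of the 6, against 8.33% of all windows, and the glucocorticoid response element was also in 0 of the 6, against 0.476%. An absent match says only that those letters were not in this window.

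Library totals ran from 58614917 to 69353439 counts, so the counting error of a family share was small, with a 95% Wilson interval of at most 0.00733 percentage points on each side, which covers counting error only. The share of mitochondrial genes was 15.4% ± 3.04 for HFDfre against 10.6% ± 2.07 for HFDfri (SD, n = 5 and 4), with overlap. The ribosomal RNA-like locus Gm26924 took from 0.466% to 11.1%. Of 49 marker genes of liver cell types, 48 were in the table and none was at 0 in all libraries. The summed hepatocyte markers overlapped between the groups (87092 to 93408 CPM, counts normalised to the TMM-scaled library size, in HFDfre and 76850 to 104653 CPM in HFDfri). The 8 pericentral hepatocyte markers summed to between 8894 and 10677 CPM in HFDfre and between 8173 and 9078 CPM in HFDfri. A negative log2 fold change was found for 8 of 8 (median -0.31), while 49.1% of all genes tested were above 0. Of the 8, 3 had an unadjusted p under 0.05 in edgeR, against 21.2% of all genes. The 6 lymphocyte markers, at 4.53 to 8.92 CPM summed in HFDfre and 3.65 to 5.13 CPM in HFDfri, were also all negative (median -0.91, 0 at an unadjusted p under 0.05). The hepatocyte, periportal, cholangiocyte, Kupffer cell, stellate cell and endothelial cell lists each held genes of both signs. The medians of these lists ran from -0.24 (cholangiocyte) to 0.12 (hepatocyte). The part of any of the marker lists in the results below was not tested. No gene of these marker lists passed the adjusted threshold in edgeR.

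The 9 Mup genes together took a larger share of the counts in HFDfri than in HFDfre. In HFDfre the share was 5.41%, 5.0%, 5.71%, 3.20% and 4.99% in replicates 1 to 5. In HFDfri it was 8.80%, 7.35%, 5.86% and 9.0% in replicates 1 to 4. The groups did not overlap, but HFDfri replicate 3 lay just above HFDfre replicate 3, and HFDfre replicate 4 lay well below the rest of its group. On average it was 4.86% ± 0.977 for HFDfre and 7.75% ± 1.46 for HFDfri (SD, n = 5 and 4), a ratio of 1.59 and a difference of 2.89 percentage points. Without HFDfre replicate 4 the ratio was 1.47, and without HFDfri replicate 3 it was 1.72.

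**Figure D1:**
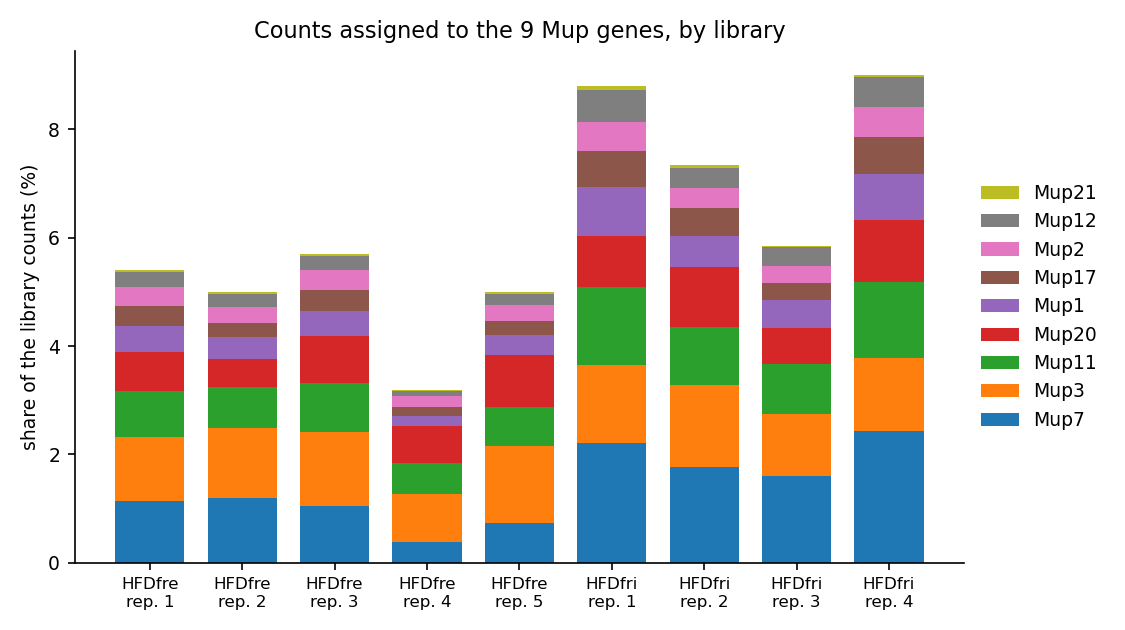
Share of the counts of each library (%, vertical axis) assigned to each of the 9 Mup genes, stacked by gene, for the 5 HFDfre and 4 HFDfri libraries (horizontal axis). The bars reach 3.20% to 5.71% in HFDfre and 5.86% to 9.0% in HFDfri, and the Mup7 segments at the base differ most.

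The gap between the groups depended on what the counts were divided by. With mitochondrial genes and Gm26924 left out of the library total, the family took 7.43%, 6.45%, 7.23%, 3.85% and 5.93% of the remaining counts in HFDfre, and 10.3%, 8.24%, 6.82% and 10.2% in HFDfri. HFDfri replicate 3 then fell below HFDfre replicates 1 and 3, so the groups overlapped, and the ratio of means was 1.44. With library sizes scaled by the trimmed mean of M-values (TMM), the groups also overlapped, and the ratio was 1.53. With Mup7 left out of the sum, they overlapped as well, with a ratio of 1.45. Summed over all 21 rows with a Mup symbol, the share of the library total was 7.54% ± 1.47 in HFDfre and 12.2% ± 2.4 in HFDfri (SD, n = 5 and 4), a ratio of 1.62 and no overlap. Without mitochondrial genes and Gm26924, and with TMM-scaled sizes, HFDfri replicate 3 fell below HFDfre replicate 1 for this sum too, so the groups overlapped.

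**Figure D2:**
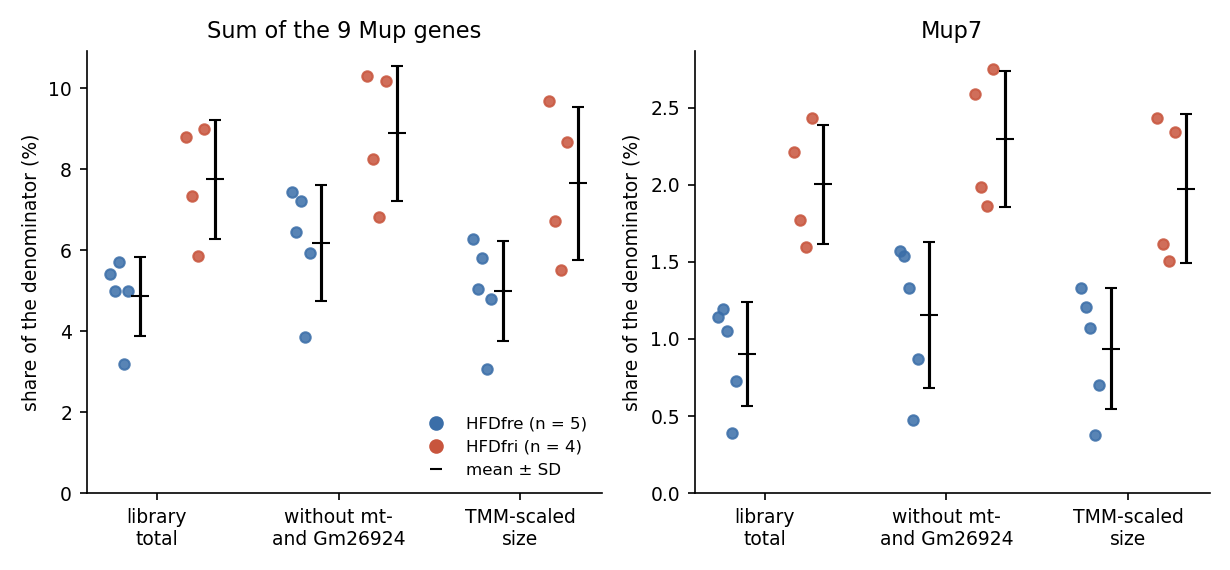
Share (%, vertical axis) of the 9-gene sum (left) and of Mup7 (right) under 3 denominators (horizontal axis): the library total, the total without mitochondrial genes and Gm26924, and the TMM-scaled library size. Points are libraries (HFDfre, n = 5, blue; HFDfri, n = 4, red) and bars are the mean ± SD; the groups overlap for the sum under the latter denominators and do not overlap for Mup7 under any of the 3.

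The share of Gm26924 varied widely, so the family share is also given on either side of 3% of counts in that locus. In libraries with less than 3% of counts in Gm26924, the family took 4.99% to 5.71% in HFDfre (n = 2) and 7.35% to 9.0% in HFDfri (n = 3). In libraries with more than 3%, it took 3.20% to 5.41% in HFDfre (n = 3) and 5.86% in the only HFDfri library. The HFDfri values were above the HFDfre values on either side. Because the shares of the groups did not overlap over all libraries, any split gives this order. The lowest libraries of the groups, HFDfre replicate 4 and HFDfri replicate 3, held 5.58% and 5.21% of their counts in Gm26924, but HFDfre replicate 1, with 11.1%, had a family share of 5.41%. The part of Gm26924 in the difference was not tested.

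Among the 6 close copies, Mup7 had the highest mean share in both groups and the largest log2 fold change, although Mup11 was above it in HFDfre replicates 4 and 5. Its share was 1.14%, 1.19%, 1.05%, 0.392% and 0.730% in HFDfre replicates 1 to 5, and 2.21%, 1.77%, 1.6% and 2.43% in HFDfri replicates 1 to 4. Every HFDfri library was above every HFDfre library, also under both other denominators, and the mean was 0.902% ± 0.337 in HFDfre and 2.0% ± 0.387 in HFDfri (SD, n = 5 and 4), a ratio of 2.22. The fitted log2 fold change was 1.08 ± 0.31 (SE, edgeR with TMM). Only 22.5% of the windows of Mup7 were unique, and the largest part it shared with a single gene, 53.5%, was also found in Mup15.

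Mup12 and Mup1, whose coding sequences were nearly identical, differed between the groups in much the same way. The share of Mup12 was 0.287%, 0.240%, 0.265%, 0.104% and 0.195% in HFDfre and 0.588%, 0.372%, 0.336% and 0.549% in HFDfri. The share of Mup1 was 0.488%, 0.415%, 0.472%, 0.190% and 0.354% in HFDfre and 0.890%, 0.573%, 0.502% and 0.857% in HFDfri. Neither overlapped between the groups, though HFDfri replicate 3 of Mup1 was close to HFDfre replicate 1. The log2 fold change was 1.02 ± 0.31 for Mup12 and 0.82 ± 0.30 for Mup1 (SE). Because these genes share about 73.8% of the windows of Mup1, their values are not separate measurements.

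Mup11 and Mup17 were also higher on average in HFDfri. The share of Mup11 was 0.849%, 0.756%, 0.912%, 0.573% and 0.732% in HFDfre and 1.44%, 1.08%, 0.916% and 1.40% in HFDfri. The groups met but did not overlap, since HFDfri replicate 3 was only just above HFDfre replicate 3. The share of Mup17, 59.6% of whose windows were unique, was 0.363%, 0.260%, 0.380%, 0.158% and 0.269% in HFDfre and 0.680%, 0.524%, 0.321% and 0.682% in HFDfri. Here 3 HFDfri libraries were above all of HFDfre, and HFDfri replicate 3 lay within its range. The log2 fold change was 0.61 ± 0.21 for Mup11 and 0.89 ± 0.30 for Mup17 (SE). Mup2, the gene with the fewest unique windows, had 0.303% ± 0.0668 in HFDfre and 0.443% ± 0.113 in HFDfri (SD, n = 5 and 4), and the groups overlapped (log2 fold change 0.49 ± 0.24, SE).

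The 3 more distant genes differed less. Mup3 took 1.17%, 1.30%, 1.36%, 0.878% and 1.42% in HFDfre and 1.44%, 1.51%, 1.15% and 1.36% in HFDfri. The groups overlapped over most of their range, and the log2 fold change was 0.10 ± 0.17 (SE), the smallest of the 9 members. Its sign turned without HFDfre replicate 4 (-0.015), without HFDfri replicate 1 (-0.0039) and with a term for the Gm26924 share (-0.0079). Every 150-base window of Mup3 was unique, so a full-length read that matched it exactly would match no other GENCODE M21 gene. Shorter reads and reads with mismatches were not examined.

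Mup20 (darcin) took 0.717%, 0.510%, 0.858%, 0.678% and 0.963% in HFDfre and 0.940%, 1.10%, 0.680% and 1.14% in HFDfri. HFDfri replicates 1 and 3 lay within the HFDfre range, so the groups overlapped, with a log2 fold change of 0.31 ± 0.20 (SE). Mup21, the scarcest member, took 0.0348%, 0.0292%, 0.0400%, 0.0242% and 0.0384% in HFDfre and 0.0645%, 0.0552%, 0.0336% and 0.0431% in HFDfri. For Mup21, HFDfri replicate 3 was the only library of its group inside the HFDfre range, and the log2 fold change was 0.51 ± 0.22 (SE).

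**Figure D3:**
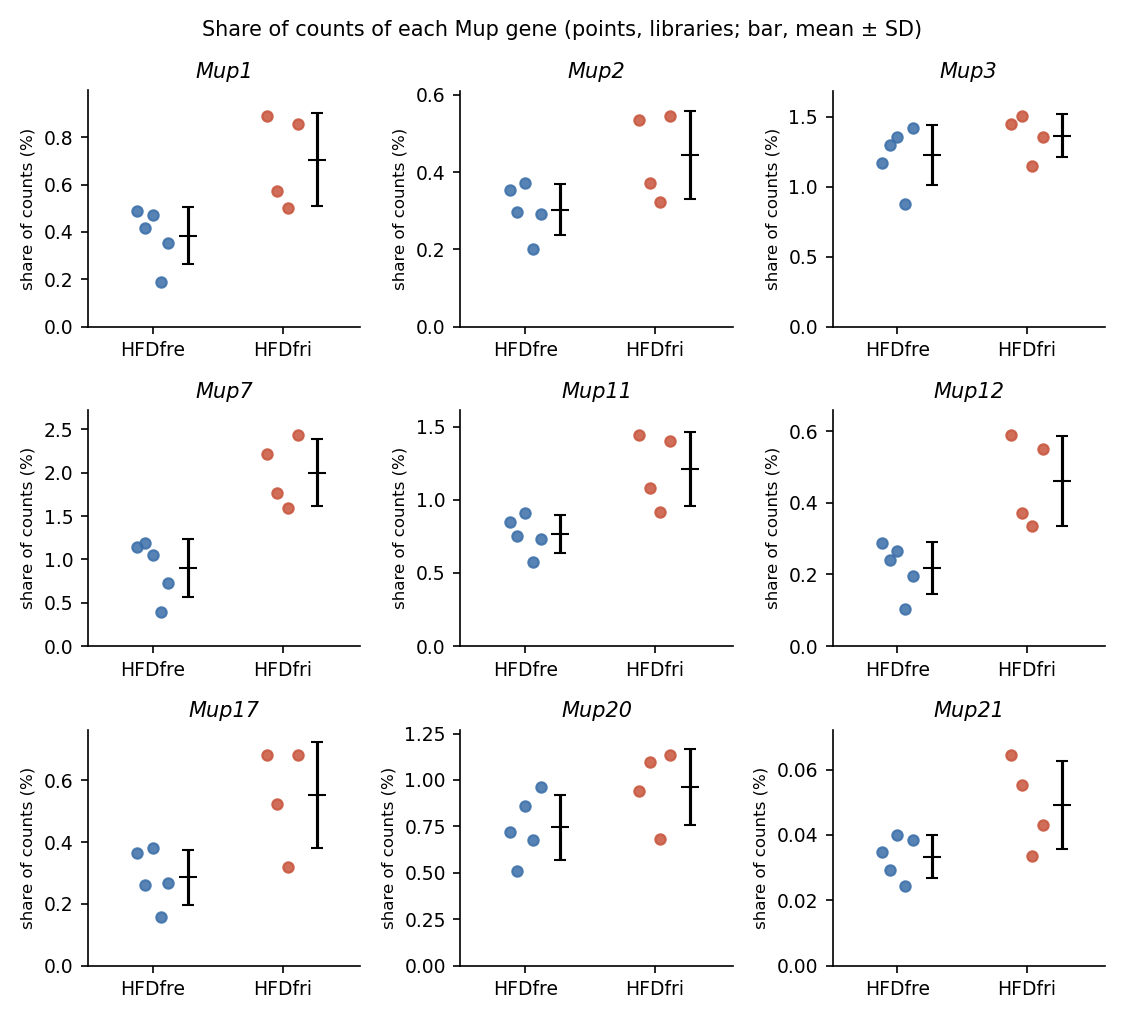
Share of counts (%, vertical axis, each from 0) of each of the 9 Mup genes in HFDfre and HFDfri (horizontal axis). Points are libraries and bars are the mean ± SD (n = 5 and 4); Mup1, Mup7, Mup11 and Mup12 do not overlap between the groups, and Mup3 overlaps most.

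In all, 4 of the 9 members (Mup1, Mup7, Mup11 and Mup12) had shares that did not overlap between the groups, each higher in HFDfri. Over all 14220 genes tested, 3.51% were higher in HFDfri without overlap and 2.28% were lower. The members were chosen on this same difference, so nothing is read from their count against that background. Under the total without mitochondrial genes and Gm26924, and under the TMM-scaled size, Mup7 alone did not overlap. HFDfre replicate 4 was the lowest of the 9 libraries for 8 of the 9 members, the exception being Mup20. HFDfri replicate 3 was the lowest of its group for all 9 members.

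The make-up of the family sum, a measure that does not use the library total, differed between the groups for Mup3 and Mup7, and every other member overlapped. Mup3 made up 21.7%, 26.0%, 23.8%, 27.5% and 28.4% of the family counts in HFDfre and 16.4%, 20.5%, 19.6% and 15.1% in HFDfri. Mup7 made up 21.1%, 23.9%, 18.4%, 12.3% and 14.6% in HFDfre and 25.2%, 24.1%, 27.2% and 27% in HFDfri. Neither overlapped: the part of Mup3 was lower and that of Mup7 higher in HFDfri. For Mup7, HFDfre replicate 2 and HFDfri replicate 2 nearly met. Parts of a sum are tied, so a larger part of some members lowers that of the others. The mean share of Mup3 in the library total was not lower, at 1.22% in HFDfre and 1.36% in HFDfri. The ratio of Mup7 to Mup3 counts was 0.726 ± 0.237 in HFDfre and 1.47 ± 0.259 in HFDfri (SD, n = 5 and 4). It ran from 0.447 to 0.976 in HFDfre and from 1.17 to 1.79 in HFDfri, without overlap. This ratio sets the member with the largest fold change over that with the smallest, and the count of Mup7 depends on divided reads. The ratio of Mup7 to Mup11 overlapped, at 0.685 to 1.58 in HFDfre and 1.54 to 1.74 in HFDfri. The part of the 6 close copies in the family counts also overlapped, at 50.6% to 64.4% and 63.8% to 72.2%.

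Grouped by sequence, the 6 close copies took 2.86% ± 0.784 of the library total for HFDfre and 5.37% ± 1.23 for HFDfri (SD, n = 5 and 4), without overlap and with a ratio of 1.88. Under both other denominators the sum of the close copies was higher in HFDfre replicate 1 than in HFDfri replicate 3, so the groups overlapped. Mup3, Mup20 and Mup21 together took 2.0% ± 0.335 and 2.38% ± 0.353, with overlap and a ratio of 1.19. This grouping was made after the values were known. Of the difference of 2.89 percentage points in the family share, the close copies carried 2.52 points and the other 3 genes 0.373 points.

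**Figure D4:**
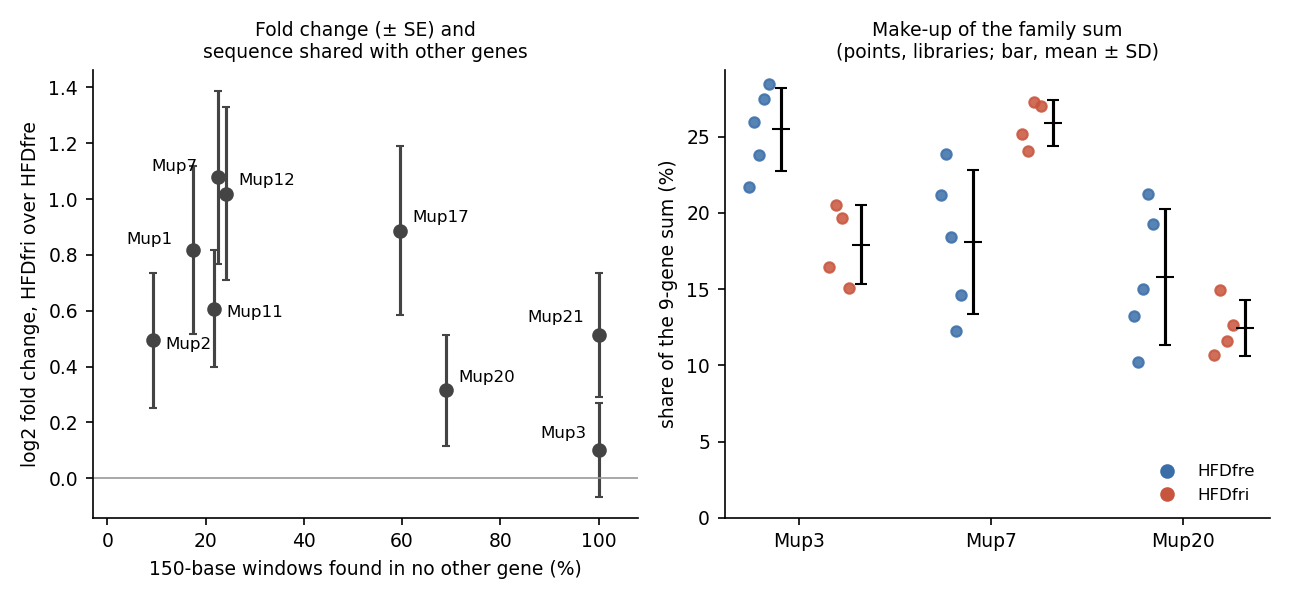
Left, log2 fold change (HFDfri over HFDfre, ± SE, vertical axis) of the 9 Mup genes against the share of their 150-base windows found in no other gene (%, horizontal axis). Right, share of the 9-gene sum (%, vertical axis) of Mup3, Mup7 and Mup20 in HFDfre (blue, n = 5) and HFDfri (red, n = 4), with bars for the mean ± SD; Mup3 is lower and Mup7 higher in HFDfri without overlap, and Mup20 overlaps.

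Levels between genes were compared as CPM per kilobase of transcript. On this scale Mup3 had the highest level in HFDfre (12448 ± 2176, SD, n = 5), followed by Mup7 (9734 ± 3640), Mup11 (8219 ± 1389) and Mup20 (8029 ± 1873). The ranges of these neighbours overlapped, and Mup3 was above Mup7 in 4 of the 5 libraries. Mup1, Mup2, Mup17 and Mup12 followed with mean levels from 4139 down to 2355 and overlapping ranges between neighbours, and Mup21 came last at a mean of 492.

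In HFDfri the order on the same scale began with Mup7 (21595 ± 4170, SD, n = 4), which was above Mup3 (13869 ± 1581) in 4 of 4 libraries with no overlap of their ranges. Mup11 (13004 ± 2722) and Mup20 (10374 ± 2226) came next, and Mup3 and Mup11 could not be ordered, with Mup3 the higher in 2 of 4 libraries. Mup1, Mup17, Mup12 and Mup2 had mean levels from 7609 to 4783, again with overlapping ranges between neighbours, and Mup21 was last at a mean of 725. For the close copies, and in part for Mup20, these levels carry the uncertainty of divided reads.

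Across the libraries most members varied together. The log2 CPM of each member was correlated (Pearson) with that of the sum of the other 8. This is a description over 9 libraries that share the same denominator and, for the close copies, the same reads. The correlation was highest for Mup1 (0.99) and lowest for Mup20 (0.61). After the group means were subtracted, it was 0.98 for Mup1, 0.87 for Mup3 and 0.47 for Mup20. Mup20 thus followed the others least, within the groups as well as across them.

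The 12 other rows with a Mup symbol together had 2.68% ± 0.508 of the library total in HFDfre and 4.47% ± 0.940 in HFDfri (SD, n = 5 and 4), without overlap. Under both other denominators HFDfri replicate 3 was below HFDfre replicate 1 for this sum, so the groups overlapped. Mup4 and Mup5, known chiefly from glands of the head rather than the liver, were near zero, with 0 counts for Mup4 in every library and 0 to 783 counts for Mup5. Mup6 had 10 to 70 counts. The remaining 9 rows had a higher mean in HFDfri, and 6 of them did not overlap as shares of the library total (Mup13, Mup14, Mup15, Mup16, Mup18 and Mup19), beside 3.51% of all genes higher without overlap. These rows share reads with the members and are part of the family whose difference was already known, so nothing is read from that count. The largest log2 fold changes were those of Mup14 (1.22 ± 0.29, SE) and Mup15 (1.2 ± 0.32), both larger than that of Mup7. Only 21.0% and 9.28% of their windows were unique.

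Growth hormone signalling, which drives Mup expression, was described through 15 genes, of which 14 were abundant enough to test. Across all 14220 genes, edgeR's quasi-likelihood test with Benjamini-Hochberg adjustment called 150 genes at an adjusted p of 0.05. Of these 71 were higher in HFDfri (0.499% of the genes tested) and 79 lower (0.556%), while library totals without TMM gave 55 higher and 21 lower. The count rested on single libraries, with 6 calls without HFDfre replicate 3 or 5, 10, 26, 39, 46 and 51 without HFDfri replicate 3, HFDfri replicate 4 and HFDfre replicates 1, 4 and 2, and 235 and 1106 without HFDfri replicates 2 and 1. Of the 14 pathway genes, 1 rose and 0 fell, and the median log2 fold change was -0.06, against -0.01 over all genes.

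The gene that rose was Stat3, a transcription factor activated by cytokines of the interleukin-6 family as well as by growth hormone. Its level was 39.6, 45.6, 37.3, 38.3 and 47.1 CPM in HFDfre and 100.3, 64.7, 56.4 and 90.6 CPM in HFDfri. Every HFDfri library was higher, and the log2 fold change was 0.91 ± 0.16 (SE, edgeR adjusted p = 0.0322). The call was lost without any of the HFDfre libraries or without HFDfri replicate 4, with an adjusted p of at most 0.0932 there, and DESeq2 kept it.

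The receptor and the classical target did not pass. Ghr, the growth hormone receptor, had a log2 fold change of -0.05 ± 0.09 (SE, edgeR adjusted p = 0.784), and Igf1, the hormone it induces in the liver, of -0.07 ± 0.16 (adjusted p = 0.849). Both signs turned under an alternative, library totals for Ghr (0.01) and leaving out HFDfri replicate 2 (0.02) or 4 (0.01) for Igf1. Stat5b, named here after its values were seen because it is the factor that carries the male growth hormone pattern, had 28.1 ± 1.41 CPM in HFDfre and 31.5 ± 1.95 CPM in HFDfri (SD, n = 5 and 4; log2 fold change 0.16 ± 0.08, edgeR adjusted p = 0.283).

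Genes known to be expressed more in male than in female liver, as the Mup genes are, were mostly higher in HFDfri. Of the 17 on the list, all were tested, 5 rose and 0 fell by edgeR's adjusted p, against 0.499% of all genes that were higher. The log2 fold change was above 0 for 16 of the 17, against 49.1% of all genes, and its median was 0.61. Their summed level was 2696 to 3974 CPM in HFDfre and 4319 to 5424 CPM in HFDfri. These lists were written with earlier results of these data known, so the counts describe the lists and are no independent evidence.

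Cyp7b1, the oxysterol 7-alpha-hydroxylase of bile acid and steroid metabolism, differed most of the 5. Its level was 80.9, 96.1, 82.2, 56.4 and 84.4 CPM in HFDfre and 346, 120, 254 and 193 CPM in HFDfri. The groups did not overlap, and the log2 fold change was 1.51 ± 0.25 (SE, edgeR adjusted p = 0.0293). Its highest library, HFDfri replicate 1, was also among the highest for the Mup genes, but its second highest, HFDfri replicate 3, was the lowest of that group for every Mup member.

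C6 and C8b, which encode components of the membrane attack complex of complement, also rose. C6 had 125, 111, 107, 68.0 and 99.4 CPM in HFDfre and 333, 163, 206 and 201 CPM in HFDfri (log2 fold change 1.14 ± 0.21, SE, edgeR adjusted p = 0.0354). C8b had 168, 155, 114, 82.1 and 133 CPM in HFDfre and 326, 203, 334 and 260 CPM in HFDfri (1.11 ± 0.20, adjusted p = 0.0354). HFDfre replicate 4, the lowest library for most Mup genes, was the lowest for Cyp7b1, C6 and C8b too.

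Ugt2b38, a glucuronosyltransferase, and Susd4, a complement regulator, were the other genes that rose. Ugt2b38 had 19.8, 26.9, 20.1, 25.3 and 22.8 CPM in HFDfre and 33.2, 39.7, 47.3 and 41.3 CPM in HFDfri (log2 fold change 0.81 ± 0.12, SE, edgeR adjusted p = 0.0293). Susd4 had 6.66, 9.81, 8.66, 8.65 and 6.41 CPM in HFDfre and 13, 11.6, 17.9 and 17.3 CPM in HFDfri (0.89 ± 0.17, adjusted p = 0.0359). All HFDfri libraries of both genes were above all HFDfre libraries. None of the 5 genes passed when HFDfre replicate 3, HFDfre replicate 5, HFDfri replicate 3 or HFDfri replicate 4 was left out, where the adjusted p was at most 0.108, and 2 or 3 of them passed without HFDfre replicate 1, 2 or 4. DESeq2 called 10 of the 17, all higher, against 5.23% of the 10901 genes it tested that were higher.

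The most abundant genes of the male-biased list were Cyp2d9, a male-specific steroid hydroxylase, and Gstp1, a glutathione transferase. Cyp2d9 had 1014 CPM in HFDfre and 1079 CPM in HFDfri on average (log2 fold change 0.09 ± 0.11, SE, edgeR adjusted p = 0.671). Gstp1 had 693 and 935 CPM (0.43 ± 0.17, adjusted p = 0.168). Neither passed the threshold, and their groups overlapped.

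Female-biased genes were few and low in these male livers, and of 17 on the list only 9 were abundant enough to test. Of the 9, 0 rose and 1 fell, against 0.556% of all genes that were lower, and 7 were at a lower mean in HFDfri with a list median of -0.89 on the log2 scale. The gene that fell was Tox, which encodes a nuclear protein of the high-mobility-group box family. It had 8.26, 5.99, 6.71, 7.82 and 4.63 CPM in HFDfre and 3.36, 3.50, 3.72 and 2.50 CPM in HFDfri. Every HFDfri library was below every HFDfre library (log2 fold change -1.03 ± 0.19, SE, edgeR adjusted p = 0.0354). The call was lost without any HFDfre library or without HFDfri replicate 3 or 4, with an adjusted p of at most 0.0932 there, and 3 genes of the list were called without HFDfri replicate 1. DESeq2 called 4, all lower, against 4.57% of all genes lower. The most abundant of the list, Cyp17a1 (-0.61 ± 0.19, SE, adjusted p = 0.112) and Trim24 (-0.38 ± 0.20, adjusted p = 0.296), did not pass.

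**Figure D5:**
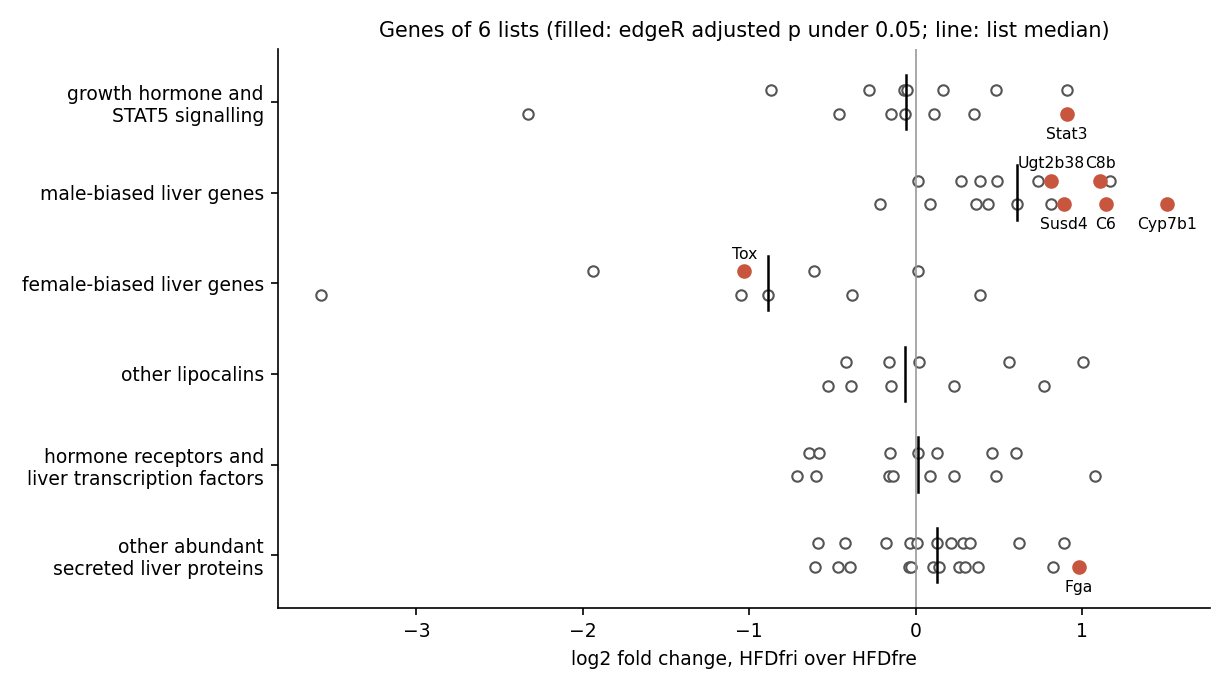
Log2 fold change (HFDfri over HFDfre, horizontal axis) of the tested genes of 6 lists (vertical axis). Filled points passed an edgeR adjusted p of 0.05, open points did not, and vertical lines are list medians; 16 of 17 male-biased genes lie to the right of 0 and 7 of 9 female-biased genes to the left.

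Other lipocalins, the wider family to which Mup proteins belong, gave no call in edgeR. Of 10 tested, 0 passed edgeR's adjusted threshold, 1 had an unadjusted p under 0.05, and DESeq2 called 1, against 21.2% and 9.8% of all genes. The median log2 fold change was -0.06. Rbp4, the carrier of retinol, had 3277 CPM in HFDfre and 2961 CPM in HFDfri (log2 fold change -0.15 ± 0.12, SE, edgeR adjusted p = 0.504). Ambp, which encodes alpha-1-microglobulin, had 1988 and 2018 CPM (0.02 ± 0.12, adjusted p = 0.94), and its sign turned when HFDfre replicate 2 was left out.

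Hormone receptors and transcription factors of hepatocytes gave no call in edgeR. Of 15 tested, 0 passed the adjusted threshold, 8 had an unadjusted p under 0.05 (4 higher and 4 lower), against 21.2% of all genes. DESeq2 called 5, against 9.8% of all genes. The most abundant were Hnf4a and Cebpa, which keep hepatocyte genes active. Hnf4a had 327 CPM in HFDfre and 450 CPM in HFDfri without overlap (log2 fold change 0.46 ± 0.10, SE, edgeR adjusted p = 0.0566), and Cebpa had 302 and 271 CPM (-0.16 ± 0.11, adjusted p = 0.45). Without HFDfri replicate 1 the list gave 5 calls in edgeR, and without HFDfri replicate 2 it gave 2.

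Among other abundant secreted liver proteins, 23 were tested, of which 1 rose and 0 fell, against 0.499% of all genes higher and 0.556% lower. The median log2 fold change was 0.13, and 13 had an unadjusted p under 0.05 (8 higher and 5 lower), against 21.2% of all genes. The gene that rose was Fga, which encodes the alpha chain of fibrinogen. It had 1752, 2212, 1534, 1824 and 1988 CPM in HFDfre and 4894, 2922, 3190 and 3678 CPM in HFDfri, without overlap (log2 fold change 0.98 ± 0.16, SE, edgeR adjusted p = 0.0293). Without HFDfre replicate 1, 3, 4 or 5 or HFDfri replicate 3 or 4 it did not pass, with an adjusted p of at most 0.0888. Alb, albumin, had 65828 and 63983 CPM (-0.04 ± 0.14, SE, adjusted p = 0.897), and Apoe, a lipid carrier, had 19329 and 14686 CPM (-0.40 ± 0.14, adjusted p = 0.152). DESeq2 called 12 of the 23 (7 higher and 5 lower), against 9.8% of all genes, and edgeR called 8 without HFDfri replicate 1 and 2 without HFDfri replicate 2.

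The genes whose pattern was most like that of the Mup sum were ranked by the Pearson correlation of log2 CPM among 10104 genes outside the family, as a description over 9 libraries that share composition and depth. Over all 9 libraries the highest were Gstp1 (0.95), Tspan33 (0.94), Gnat1 (0.93), Mlx (0.91) and Acpp (0.90). After the group means were subtracted they were Irf1 (0.98), Msr1 (0.96), Fzd7 (0.96), Gngt2 (0.95) and Gimap8 (0.94). The lists had no gene in common. Irf1 had 16.4 to 27.7 CPM in HFDfre and 14.8 to 22.4 CPM in HFDfri. It did not differ between the groups as the Mup sum did. Its correlation within the groups is the highest of 10104 over 9 libraries, and whether unrelated genes reach such a value was not tested.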

How the data were processed

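Liver RNA was sequenced as paired-end reads in 9 libraries (5 HFDfre, 4 HFDfri). The authors deposited estimated counts per gene (expected counts), which the submitters' processing notes link to HISAT2, StringTie and mm10. How reads matching several copies were divided is not given in the sources used here. The values were whole, and a value of 4 was more frequent (3990 times) than 3 (2172) or 5 (1840). Library totals ran from 58614917 to 69353439 counts. The labels do not state whether each library came from a separate mouse, and if not, p-values measure a spread that may be technical.

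Shares were counts over the library total. Genes were filtered with filterByExpr (14220 kept) and compared with edgeR 4.0.16 (quasi-likelihood test, TMM, Benjamini-Hochberg, two-sided, HFDfri over HFDfre). The study used DESeq2, here an alternative (1.42.0). Other alternatives were DESeq2 size factors, library totals, no filter, a replicate block, leaving out each library and, added after seeing the data, a term for a Gm26924 share over 3%. Coding sequences were aligned with mafft 7.526. The scripts were tested on simulated data.

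The members and lists were chosen with earlier results of these data known. The genes named are the 9 members, list genes past an adjusted p of 0.05, the 2 most abundant of each list, and the 5 most correlated with the Mup sum (log2 CPM, prior count 2, mean of at least 1), with and without group means. Selenbp2, Serpina1e, Egfr, Acot3 and Cyp4a14 were left out of the sex-biased lists because earlier results had named them.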

Additional observations from a re-analysis of the deposited data

Results flagged for a closer look

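In 92 groups of values checked for a library far from the rest of its group, 3 were found, and chance gives about 1 in 20. The family share of HFDfre replicate 4 was 3.20%, whereas the next lowest of the group was 4.99%. Cyp2d9 in HFDfre replicate 1 had 1188 CPM, whereas the next highest had 1002 CPM. Cebpa in HFDfri replicate 1 had 338 CPM, whereas the next highest had 256 CPM.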

How the results depend on the processing

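The ratio of family shares stayed above 1 in every alternative run. It ran from 1.44 to 1.62 over the denominators and sums and from 1.47 to 1.72 when a library was left out. With no overlap between the groups in the library-total share, leaving out a library could not bring the ratio down to 1. The log2 fold changes of the 8 members other than Mup3 kept their sign in all 14 alternatives. That of Mup3, up to 0.19 without HFDfri replicate 3, turned without HFDfre replicate 4 (-0.015), without HFDfri replicate 1 (-0.0039) and with the Gm26924 term (-0.0079). The count of all genes called was 150, and it was 1068 with DESeq2, 76 with library totals, 72 without the filter, 480 with the Gm26924 term and 6 to 1106 when a library was left out. The lists in the order growth hormone, male-biased, female-biased, other lipocalins, hormone receptors and secreted proteins had 1, 5, 1, 0, 0 and 1 calls. Leaving out a library gave 0 to 1, 0 to 7, 0 to 3, 0 to 1, 0 to 5 and 0 to 8. DESeq2 gave 10 male-biased, 4 female-biased, 1 lipocalin, 5 hormone receptor and 12 secreted-protein calls. Library totals gave 3 secreted-protein calls, and the Gm26924 term 1 lipocalin, 3 hormone receptor and 3 secreted-protein calls. The cause of these changes was not tested.

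The replicate numbers of the labels did not pair the libraries (correlations of same-numbered deviations 0.027, 0.081, -0.14 and 0.034). With the replicate block, 0 of the 14220 genes passed edgeR's adjusted threshold (2536 at an unadjusted p under 0.05), and the growth hormone, male-biased, female-biased and secreted-protein lists had 0 calls.

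Signs of genes that did not pass also turned: Ghr with library totals (0.010), Igf1 without HFDfri replicate 2 (0.016) or 4 (0.0094) against -0.26 without HFDfri replicate 1, Alb with library totals (0.0055) or without HFDfri replicate 4 (0.046), and Ambp without HFDfre replicate 2 (-0.0051), HFDfre replicate 3 (-0.010) or HFDfri replicate 1 (-0.11) and with the Gm26924 term (-0.0096) against 0.070 without HFDfri replicate 3. Depth does not limit the Mup shares, but the division of reads between close copies limits what the single copies show.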
